A study of Mus musculus with 9 samples.

Results

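*Bnip3* and 6 other genes that mark mitochondria for removal by autophagy were followed in mouse embryonic stem cells (mESC) taken out of the ground state, with or without a source of nitric oxide. The 7 genes, of the 29069 in the deposited table, were *Bnip3*, *Bnip3l*, *Fundc1*, *Pink1*, *Bcl2l13*, *Fkbp8* and *Phb2*, found by their gene names. *Bnip3* was chosen by its measured fall with nitric oxide, so its values in that medium are described without a test. The other 6 were listed by their known function, after earlier results of the same data had been seen.

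Total RNA was sequenced from the D3 line, an established mESC line adapted to culture without feeder cells, after 24 h in 1 of 3 media, with 3 samples in each. Ground-state medium (GS) was serum-free N2B27 with PD0325901 (1 μM, inhibits MEK), CHIR99021 (3 μM, inhibits GSK-3) and 20 ng/mL of LIF, a cytokine that helps to hold mESC undifferentiated. The differentiation medium (DM) was DMEM with 10% fetal bovine serum and none of those 3 agents, and NO was DM with 250 μM DETA/NO, which releases nitric oxide. DM and GS thus differed in basal medium, serum, inhibitors and LIF at once, and these cannot be told apart, whereas NO and DM differed in the donor alone. Each sample was a dish of the same line, and nothing in the labels says that the dishes were separate experiments. The paper's statistical methods state in general that values came from 3 or more independent experiments unless noted, without naming the sequenced dishes. The p-values measure the spread between these samples, which may be technical.

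Mitophagy is the removal of mitochondria by autophagosomes. By a direct route, receptors that sit in the mitochondrial outer membrane bind LC3 and GABARAP proteins on the growing autophagosome directly. BNIP3, its paralog BNIP3L (also called NIX), FUNDC1, BCL2L13 and FKBP8 are such receptors. BNIP3 is best known as a target of hypoxia-inducible factors (HIF), and BNIP3L for the clearance of mitochondria from maturing red cells. PHB2, prohibitin 2, is an inner-membrane protein that becomes reachable for LC3 when the outer membrane breaks. PINK1 is a kinase and not itself a receptor: it gathers on damaged mitochondria, phosphorylates ubiquitin and draws in Parkin and the adaptors that bind ubiquitin. Pluripotent cells have few, immature mitochondria, and mitophagy has been linked to how that state is reached and left.

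All 7 genes were expressed in every sample, with 85 normalised counts or more. The unit, a normalised count, is the reads of a gene scaled between samples and rounded by the authors. Of the 7 differences of NO from GS, that of *Bnip3* was the lowest and that of *Pink1* the highest, and the same held for NO against DM. The 250 bases before the RefSeq start of each of these 2 genes (GRCm38.p6, minus strand, 5′ to 3′) are shown because HIF binds the core letters ACGTG or GCGTG. Capitals mark those letters on either strand. The *Bnip3* window is chr7:138909507-138909756 and the *Pink1* window is chr4:138326297-138326546.
Bnip3: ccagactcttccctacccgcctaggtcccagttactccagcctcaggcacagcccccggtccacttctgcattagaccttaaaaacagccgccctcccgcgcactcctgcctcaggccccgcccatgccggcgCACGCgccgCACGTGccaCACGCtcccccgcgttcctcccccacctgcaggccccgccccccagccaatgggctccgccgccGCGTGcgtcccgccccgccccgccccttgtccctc
Pink1: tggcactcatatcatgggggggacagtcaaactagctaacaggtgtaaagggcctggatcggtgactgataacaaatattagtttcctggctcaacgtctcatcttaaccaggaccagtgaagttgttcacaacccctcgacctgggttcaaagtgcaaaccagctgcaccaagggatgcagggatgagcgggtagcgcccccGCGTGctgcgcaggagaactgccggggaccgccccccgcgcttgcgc
The *Bnip3* window held 5 matches, which began 117, 108, 107, 99 and 35 bases before the start. The matches at 108 and 107 are the 2 strands of one palindrome, CACGTG. As many as 5 were found in 1.01% of the 32851 promoter windows of this length in the table. The *Pink1* window held 1 match, a GCGTG 47 bases before the start, and at least 1 match of either kind occurred in 38.6% of all windows. A match is a description of the letters and shows no binding.

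*Bnip3* (ENSMUSG00000078566, chromosome 7, 138890836 to 138909519, minus strand, GRCm38) encodes the BH3-containing receptor of the outer membrane. It had 1348, 886 and 1353 normalised counts in GS replicates 1, 2 and 3, 1794, 1688 and 1809 in DM, and 88, 104 and 85 in NO. The 3 media did not overlap, with DM highest and NO far below both. Group means (± SD, n = 3) were 1196 ± 268 for GS, 1764 ± 66.0 for DM and 92.33 ± 10.2 for NO. The level in NO was 12.6-fold lower than in GS, a log2 fold change of -3.66 with a 95% interval of -4.05 to -3.27. It was 19.0-fold lower than in DM, a log2 fold change of -4.25 with an interval of -4.63 to -3.86. These are the values the gene was chosen by, and they were the second lowest of 18156 tested genes in both comparisons. *Bnip3* was not at the limit of detection in NO: at the estimated depth of each library, the 3 values stood for about 126, 81 and 65 reads.

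The change from GS to DM, in basal medium, serum, inhibitors and LIF together, was not itself used to choose *Bnip3* and could be tested. The GS and DM values were, however, the references for its fall in NO. DM was 1.5-fold above GS, or 0.59 ± 0.18 (SE) on the log2 scale, with a 95% interval of 0.20 to 0.98. The Benjamini-Hochberg adjusted p-value over all tested genes was 0.0771 (limma), so the difference did not pass 0.05. GS replicate 2 weighs on it. Without that sample the log2 fold change was 0.38 (adjusted p = 0.271), and without NO replicate 2, which enters only through the shared spread, it was 0.59 (adjusted p = 0.0417).

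Reads of *Bnip3* could be shared with other annotated features. Its exons overlap those of the antisense model *Gm45507* over 504 bases, 22.3% of its exon length. *Gm45507* itself has no values in the deposited table, and whether strand was used in counting is not given in the sources used here. Another 5 loci are near-identical to part of its transcript. The 2 of them with values in the table, the pseudogenes *Gm16439* and *Gm14506*, reached at most 11 and 1 normalised counts in any sample.

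**Figure D1:**
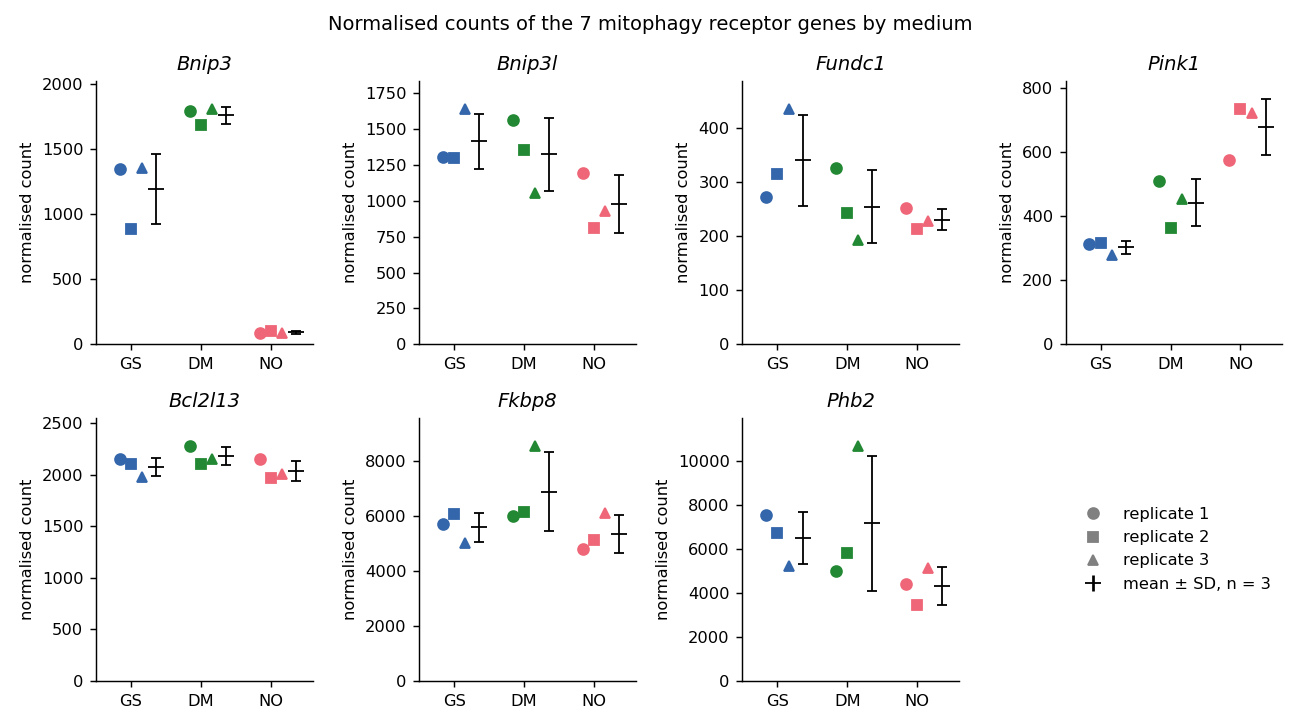
Normalised counts (y axis, from 0) of each gene in GS, DM and NO (x axis), with 1 marker per replicate and the mean ± SD (n = 3) in black beside them. *Bnip3* lay at 85 to 104 in NO, *Pink1* reached 577 to 735 there, and *Bcl2l13* stayed between 1965 and 2281 in all 9 samples.

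*Bnip3l* (ENSMUSG00000022051, chromosome 14, 66985239 to 67008877, minus strand) is the closest paralog. It had 1308, 1299 and 1639 normalised counts in the GS samples, 1565, 1356 and 1057 in DM, and 1197, 808 and 929 in NO. The NO samples lay below all GS samples, while DM overlapped both. Group means were 1415 ± 194 for GS, 1326 ± 255 for DM and 978 ± 199 for NO. NO differed from GS by -0.54 on the log2 scale (95% interval -0.95 to -0.13, adjusted p = 0.0618) and from DM by -0.44 (-0.85 to -0.03, adjusted p = 0.135), neither of which passed. DM differed from GS by -0.10 (-0.51 to 0.31, adjusted p = 0.814). The intervals against GS and DM thus allow a decrease in NO of at most about 1 on the log2 scale, where *Bnip3* had -3.66 and -4.25. Without DM replicate 3 the adjusted p-value of NO against GS was 0.0409, and without NO replicate 1 it was 0.0176 for a log2 fold change of -0.70. Without NO replicate 1 the comparison with DM also passed, at -0.59 (adjusted p = 0.0397). A near-identical transcribed copy, *Bnip3l-ps*, reached at most 13 normalised counts.

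*Fundc1* (ENSMUSG00000025040, chromosome X, 17556564 to 17572325, minus strand) encodes an outer-membrane receptor known from hypoxic mitophagy. It had 272, 314 and 434 normalised counts in the GS samples, 326, 243 and 193 in DM, and 251, 212 and 228 in NO. All NO values lay below all GS values, and DM spanned both. Relative to GS, NO was -0.54 on the log2 scale (-1.03 to -0.04, adjusted p = 0.117) and DM was -0.42 (-0.92 to 0.07, adjusted p = 0.331). NO and DM differed by -0.11 (-0.61 to 0.38, adjusted p = 0.778). No difference passed.

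*Pink1* (ENSMUSG00000028756, chromosome 4, 138313409 to 138326307, minus strand) encodes the mitochondrial kinase. It had 314, 316 and 280 normalised counts in the GS samples, 511, 363 and 455 in DM, and 577, 735 and 723 in NO. The 3 media were ordered GS, DM, NO with no overlap between neighbours. Group means were 303.3 ± 20.2 for GS, 443 ± 74.7 for DM and 678.3 ± 88.0 for NO. *Pink1* was 2.22-fold higher in NO than in GS, or 1.15 ± 0.17 (SE) on the log2 scale, with an interval of 0.78 to 1.52 and an adjusted p-value of 0.00125. It passed in all 19 alternative analyses, with log2 fold changes between 1.09 and 1.26 and adjusted p-values of at most 0.00863.

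Against DM, *Pink1* was 1.54-fold higher in NO, a log2 fold change of 0.62 (0.25 to 0.99, adjusted p = 0.0324). The call was not firm: with the replicate number as a block, since samples of NO and DM with the same number varied together, the log2 fold change was again 0.62 and the adjusted p-value 0.0546. It was also lost without DM replicate 2 (0.48, adjusted p = 0.117), DM replicate 3 (0.0618), NO replicate 2 (0.0876), NO replicate 3 (0.101), GS replicate 1 (0.0506) and GS replicate 2 (0.0536). DM against GS gave 0.53 (0.16 to 0.90, adjusted p = 0.0899) and did not pass. The short RNA genes *Gm27646* and *Mir7019* lie within its exons, over 110 and 69 bases.

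*Bcl2l13* (ENSMUSG00000009112, chromosome 6, 120836212 to 120892842, plus strand), the mammalian counterpart of the yeast receptor Atg32, differed least between the media. It had 2150, 2106 and 1977 normalised counts in the GS samples, 2281, 2110 and 2155 in DM, and 2151, 1965 and 2010 in NO, and the media overlapped throughout. The log2 differences were 0.07 for DM against GS (-0.18 to 0.32, adjusted p = 0.789), -0.03 for NO against GS (-0.27 to 0.22, adjusted p = 0.903) and -0.10 for NO against DM (-0.35 to 0.15, adjusted p = 0.605). A difference of more than 0.35 in either direction lay outside all 3 intervals. Its SD between replicates was 0.06 on the log2 scale in GS, 0.06 in DM and 0.07 in NO, and only 8.7%, 5.5% and 5.3% of the tested genes had a smaller one. Exons are shared with *Bid* over 628 bases, 6.9% of the exon length.

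*Fkbp8* (ENSMUSG00000019428, chromosome 8, 70527724 to 70535328, plus strand) encodes a receptor that is also a chaperone holding BCL2 at mitochondria. It had 5700, 6050 and 5005 normalised counts in the GS samples, 5977, 6124 and 8538 in DM, and 4810, 5105 and 6100 in NO. NO overlapped both other media. The log2 differences were 0.29 for DM against GS (-0.08 to 0.65, adjusted p = 0.378), -0.07 for NO against GS (-0.43 to 0.30, adjusted p = 0.809) and -0.35 for NO against DM (-0.72 to 0.01, adjusted p = 0.17). None passed.

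*Phb2* (ENSMUSG00000004264, chromosome 6, 124712336 to 124716950, plus strand) encodes the inner-membrane prohibitin. It had 7555, 6740 and 5242 normalised counts in the GS samples, 5018, 5824 and 10709 in DM, and 4400, 3438 and 5141 in NO. All NO values lay below all GS values. DM replicate 3 stood at about double the other DM samples and set much of what DM showed. NO differed from GS by -0.59 (-1.17 to -0.02, adjusted p = 0.133) and from DM by -0.67 (-1.24 to -0.10, adjusted p = 0.107), and DM from GS by 0.08 (-0.50 to 0.65, adjusted p = 0.91). Without DM replicate 3 the difference of NO from DM was -0.34 (adjusted p = 0.302), that of DM from GS was -0.25, and that of NO from GS was again -0.59, with an adjusted p-value of 0.04. The same DM sample was the highest of the 9 for *Fkbp8* and the lowest of the 6 GS and DM samples for *Bnip3l* and *Fundc1*. The part of this library in those results was not tested beyond leaving it out.

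**Figure D2:**
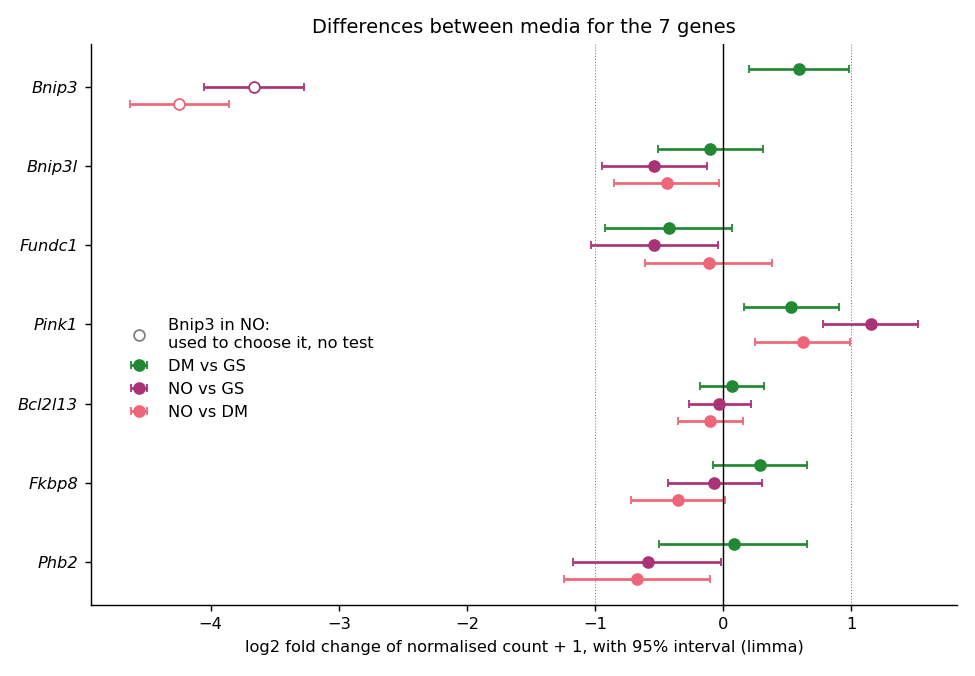
Log2 fold changes of normalised count + 1 (x axis) for the 7 genes (y axis) in the 3 comparisons, with 95% intervals from limma (3 samples per medium). Dotted lines mark a 2-fold change, and open points are the *Bnip3* values it was chosen by. *Pink1* lay at 1.15 in NO against GS, and all *Bcl2l13* intervals stayed within 0.35 of zero.

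Of the 6 genes other than *Bnip3*, none passed an adjusted p-value of 0.05 in DM against GS (limma), and 1 of them, *Pink1*, had an unadjusted p-value under 0.05. Over all tested genes 4.37% passed as higher and 2.32% as lower in DM, and 19.9% had an unadjusted p-value under 0.05. In NO against GS 1 of 6 passed as higher, *Pink1*, and none as lower, where 13.4% of all genes passed as higher and 6.64% as lower. An unadjusted p-value under 0.05 was seen for 4 of the 6, and for 34.6% of all genes. In NO against DM 1 of 6, again *Pink1*, passed as higher and none as lower, against 9.01% and 5.24% of all genes, and 3 of 6 had an unadjusted p-value under 0.05 against 31.3%. With a 2-fold change asked for as well, *Pink1* in NO against GS was the 1 call among the 6. The shares of all genes past both thresholds were 2.94% higher and 1.27% lower in DM against GS, 10.1% and 1.64% in NO against GS, and 6.78% and 1.77% in NO against DM. The median log2 fold change of the 6 was 0.07, -0.30 and -0.23 in these comparisons, and that of all genes was within 0.02 of zero in each. With so few genes, and 1 or 0 calls among them, the shares do not set the list apart from other genes.

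Levels between genes can be compared per length. Per kb of exon, *Phb2* was highest in GS at 1750 ± 316 normalised counts per kb, followed by *Fkbp8* at 1230 ± 117, *Bnip3* at 528 ± 118, *Bnip3l* at 367 ± 50.2, *Bcl2l13* at 229, *Fundc1* at 144 and *Pink1* at 113. The samples of *Bnip3* and *Bnip3l* overlapped, as did those of *Fundc1* and *Pink1*. The order in DM was much the same, with *Bnip3* at 779 ± 29.1 per kb above *Bnip3l* at 344 ± 66.2 in all samples and *Pink1* at 166 beside *Fundc1* at 108, which it overlapped. In NO *Bnip3* came last at 40.8 ± 4.51 per kb, below *Fundc1* at 97.9 in all samples. *Pink1* at 254, *Bnip3l* at 253 and *Bcl2l13* at 225 per kb overlapped and could not be ordered there, and *Fkbp8* at 1180 and *Phb2* at 1160 overlapped too. Exon length was merged over all annotated transcripts and is an upper limit for the transcripts in use.

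The balance between the paralogs turned over with the donor. Per kb, the ratio of *Bnip3* to *Bnip3l* was 1.76, 1.16 and 1.41 in GS, 1.95, 2.12 and 2.92 in DM, and 0.125, 0.219 and 0.156 in NO. The ratio of *Bnip3* to *Pink1* was 5.07, 3.31 and 5.70 in GS, 4.14, 5.49 and 4.69 in DM, and 0.180, 0.167 and 0.139 in NO. *Bnip3* thus went from above both in all GS and DM samples to below both in all NO samples, a direction that its choice fixed. Of the summed level per kb of the 7 genes, *Bnip3* made up 8.97% to 14.8% in GS, 12.6% to 17.8% in DM and 1.04% to 1.59% in NO. *Pink1* made up 2.5% to 2.71%, 2.69% to 4.3% and 6.84% to 9.52%.

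**Figure D3:**
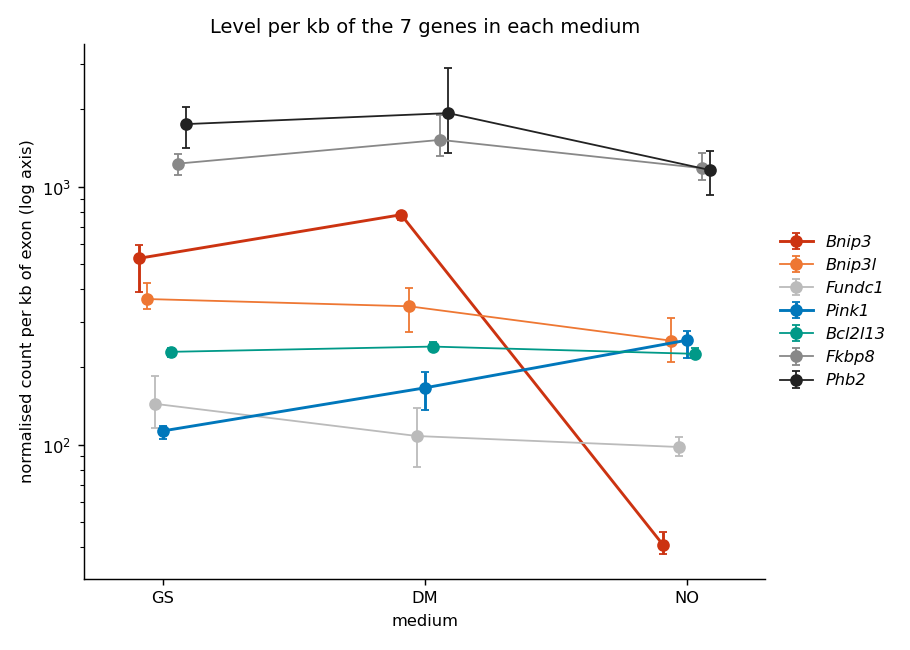
Mean normalised count per kb of exon (y axis, log scale) of the 7 genes in GS, DM and NO (x axis), with bars from the lowest to the highest of 3 samples. *Bnip3* moved from 779 in DM to 40.8 in NO, the lowest of the set, and *Pink1* from 113 in GS to 254 in NO.

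The other genes of the pathway were taken from 9 lists, 105 genes tested besides the 7. Of these, 2 passed as higher and 3 as lower in DM against GS, 9 and 11 in NO against GS, and 5 and 9 in NO against DM. The shares of all tested genes that passed as higher and as lower were 4.37% and 2.32%, 13.4% and 6.64%, and 9.01% and 5.24%, in the same order. The median log2 fold changes were -0.07, -0.13 and -0.04. These counts moved with single samples: with 1 sample left out at a time they ran from 3 to 8, from 9 to 28 and from 4 to 31.

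The receptor regulators (11 tested) include, among others, kinases and phosphatases that act on the receptors and the machinery that keeps them low. In NO against GS none of the list passed as higher and 2 passed as lower, where 13.4% and 6.64% of all tested genes did. The lower genes were *Pptc7*, a mitochondrial phosphatase that limits BNIP3 and BNIP3L, at -0.58 ± 0.15 (SE, adjusted p = 0.0178, limma), and *Csnk2a1*. The latter, a catalytic subunit of CK2, which phosphorylates FUNDC1, was at -0.54 ± 0.17 (adjusted p = 0.0484). *Pptc7* had 633, 663 and 695 normalised counts in the GS samples, 605, 550 and 680 in DM, and 480, 385 and 475 in NO, with NO below every sample of the other media. It shares 21.2% of its exon length with *Rad9b*. *Pptc7* passed in 17 of the 19 alternatives and *Csnk2a1* in 5. None of the list passed in the other comparisons, where 1 in DM against GS and 3 in NO against DM had an unadjusted p-value under 0.05. The matching shares of all tested genes were 19.9% and 31.3%.

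Of the PINK1-Parkin list (14 tested), none passed in DM against GS, and 1 passed in each direction in both NO comparisons. Of all tested genes, 13.4% passed as higher and 6.64% as lower in NO against GS, and 9.01% and 5.24% in NO against DM. Parkin itself, named *Park2* in the table, had 0 to 3 normalised counts in the 9 samples and was not tested. *March5*, an outer-membrane ubiquitin ligase, was higher in NO, by 0.48 ± 0.15 against GS (adjusted p = 0.0466, limma, and 0.0628 with the replicate block) and 0.51 ± 0.15 against DM (adjusted p = 0.0467, and 0.0618 with the replicate block). *Mfn1*, a fusion GTPase and substrate of the pathway, was lower in NO than in GS, at -0.60 ± 0.18 (adjusted p = 0.0375). *Usp35*, a deubiquitinase, was lower in NO than in DM, at -0.62 ± 0.16 (adjusted p = 0.0253). They passed in 6 to 14 of the 19 alternatives.

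Among the adaptors that link ubiquitin to LC3 (7 tested), none passed in DM against GS, 2 as higher and 1 as lower in NO against GS, and 1 as lower in NO against DM. Of all tested genes, 13.4% passed as higher and 6.64% as lower in NO against GS, and 5.24% as lower in NO against DM. *Sqstm1*, which encodes p62, had 4047, 4035 and 3985 normalised counts in the GS samples, 4477, 4154 and 4916 in DM, and 4832, 7442 and 6576 in NO. NO lay above all GS samples, by 0.62 ± 0.16 on the log2 scale (adjusted p = 0.0191), and overlapped DM. *Calcoco1* was higher by 0.74 ± 0.20 (adjusted p = 0.0227). *Optn*, the optineurin gene, was lower in NO, at -0.52 ± 0.16 against GS (adjusted p = 0.0355) and -0.55 ± 0.16 against DM (adjusted p = 0.0379). *Sqstm1* and *Calcoco1* passed in 13 and *Optn* in 9 of the 19 alternatives against GS, and *Optn* passed in 8 against DM. None of the 5 LC3 and GABARAP genes, which the receptors bind, passed in any comparison (limma), with 2, 2 and 1 at an unadjusted p-value under 0.05. The matching shares of all tested genes were 19.9%, 34.6% and 31.3%.

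Core autophagy genes (27 tested) passed in 1 case as lower in DM than in GS, in 4 cases as higher in NO than in GS and in 2 as higher in NO than in DM, with none in the other direction. The shares of all tested genes, higher and lower, were 4.37% and 2.32% in DM against GS and 13.4% and 6.64% in NO against GS. In NO against DM they were 9.01% and 5.24%, and counts this small do not set the list apart. *Ulk1*, the initiating kinase, had 5797, 5864 and 4976 normalised counts in the GS samples, 3069, 3671 and 3543 in DM, and 3845, 5770 and 4608 in NO. DM lay below every sample of the other media, at -0.69 ± 0.16 against GS (adjusted p = 0.0245). *Wdr45*, which encodes the PI3P-binding WIPI4, had 828, 990 and 868 in GS, 1119, 1012 and 1282 in DM, and 1366, 1786 and 1758 in NO. It was higher in NO than in GS by 0.86 ± 0.15 (adjusted p = 0.00305) and than in DM by 0.52 ± 0.15 (adjusted p = 0.0419, and 0.0504 with the replicate block), and it shares 24.7% of its exon length with *Gm45208*. *Atg4a*, a protease that trims LC3-family proteins, was higher by 1.09 ± 0.25 (adjusted p = 0.0106) and 0.97 ± 0.25 (adjusted p = 0.0256), and *Atg2b*, a lipid transfer protein, and *Ulk2* passed against GS at 0.79 and 0.80. In NO against GS *Wdr45* and *Atg4a* passed in all 19 alternatives and *Atg2b* in 15. In NO against DM *Wdr45* passed in 8 and *Atg4a* in 12, and *Ulk1* in DM against GS passed in 13. *Ulk2* was named because it completed the count of 4, after its value was seen.

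None of the 8 fission and fusion genes passed in any comparison (limma), with 1, 3 and 1 at an unadjusted p-value under 0.05. The matching shares of all tested genes were 19.9%, 34.6% and 31.3%. Genes of mitochondrial content (12 tested), which encode abundant mitochondrial proteins, gave 3 lower genes in NO against GS and 2 lower genes in NO against DM, and none was higher. Of all tested genes, 6.64% and 5.24% passed as lower and 13.4% and 9.01% as higher in these comparisons. None of the list passed in DM against GS (limma), where 0 had an unadjusted p-value under 0.05. *Vdac1*, the main outer-membrane channel, had 10890, 10737 and 10403 normalised counts in the GS samples, 8949, 8799 and 8215 in DM, and 7048, 4931 and 6413 in NO. The 3 media did not overlap, and NO differed by -0.82 ± 0.15 from GS (adjusted p = 0.00344, passed in all 19 alternatives) and by -0.51 ± 0.15 from DM (adjusted p = 0.0399, passed in 6). *Vdac3*, at -0.78 ± 0.23 (adjusted p = 0.0341), and *Hspd1*, the chaperonin HSP60, at -0.76 ± 0.24 (adjusted p = 0.0463), were lower in NO than in GS, in 10 and 6 alternatives. *Tomm40*, the import pore, was lower in NO than in DM at -0.60 ± 0.18 (adjusted p = 0.0457, and 0.0684 with the replicate block, passed in 5 alternatives).

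Lysosomal genes and the TFE factors (11 tested), needed for the last step, passed in 2 cases as lower in DM than in GS. In NO 1 passed in each direction against GS, and 2 as higher and 1 as lower against DM. Of all tested genes, 2.32% passed as lower in DM against GS. The shares higher and lower were 13.4% and 6.64% in NO against GS, and 9.01% and 5.24% in NO against DM. *Lamp2*, a lysosomal membrane protein, had 2303, 2054 and 2964 normalised counts in the GS samples, 1081, 1063 and 903 in DM, and 1808, 1928 and 1719 in NO. DM was lower than GS, at -1.25 ± 0.15 (adjusted p = 0.000625) and NO was higher than DM by 0.84 ± 0.15 (adjusted p = 0.00684). *Ctsd*, the protease cathepsin D, had 6666, 6745 and 6353 in GS, 6254, 5858 and 6866 in DM, and 9252, 19297 and 14082 in NO, higher than GS by 1.05 ± 0.22 (adjusted p = 0.00708) and than DM by 1.11 ± 0.22 (adjusted p = 0.00933). It shares 34.4% of its exon length with *Gm49369*. *Mitf*, a TFE-family transcription factor, was lower in NO than in GS, at -1.52 ± 0.22 (adjusted p = 0.00113) and than in DM by -0.89 ± 0.22 (adjusted p = 0.0215). *Ctsb*, the gene of cathepsin B, fell in DM relative to GS, at -0.52 ± 0.14 (adjusted p = 0.0469, limma, and 0.0862 with the replicate block, passed in 6 alternatives).

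Of the factors known to act on *Bnip3* and the hydroxylases that set HIF (10 tested), 2 passed as higher in DM than in GS, 1 as higher and 3 as lower in NO than in GS, and 4 as lower in NO than in DM. The matching shares of all tested genes were 4.37% higher in DM than in GS, 13.4% higher and 6.64% lower in NO than in GS, and 5.24% lower in NO than in DM. *Hif1a*, which encodes the oxygen-regulated HIF subunit, did not pass, at -0.03 in NO against GS (adjusted p = 0.927) and 0.16 in NO against DM (adjusted p = 0.60). *Epas1*, which encodes HIF-2 alpha, went from 364, 395 and 323 normalised counts in GS to 1251, 1508 and 1452 in DM and 870, 988 and 853 in NO. Its log2 fold changes were 1.96 (adjusted p = 2.84e-05), 1.32 for NO against GS (adjusted p = 0.000425) and -0.63 for NO against DM (adjusted p = 0.015). *Egln3*, a HIF hydroxylase gene that HIF itself induces, had 321, 212 and 234 in GS, 630, 529 and 649 in DM, and 64, 95 and 71 in NO. The order of the media was that of *Bnip3*, with changes of 1.25 (adjusted p = 0.0044), -1.72 (adjusted p = 0.000671) and -2.97 (adjusted p = 5.57e-05). *Egln1* was lower in NO, at -1.81 against GS (adjusted p = 0.000235) and -1.37 against DM (adjusted p = 0.00178). *Vhl* against GS and *Arnt* against DM completed the lower genes, at -0.67 and -0.55, and were named for that reason after their values were seen.

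**Figure D4:**
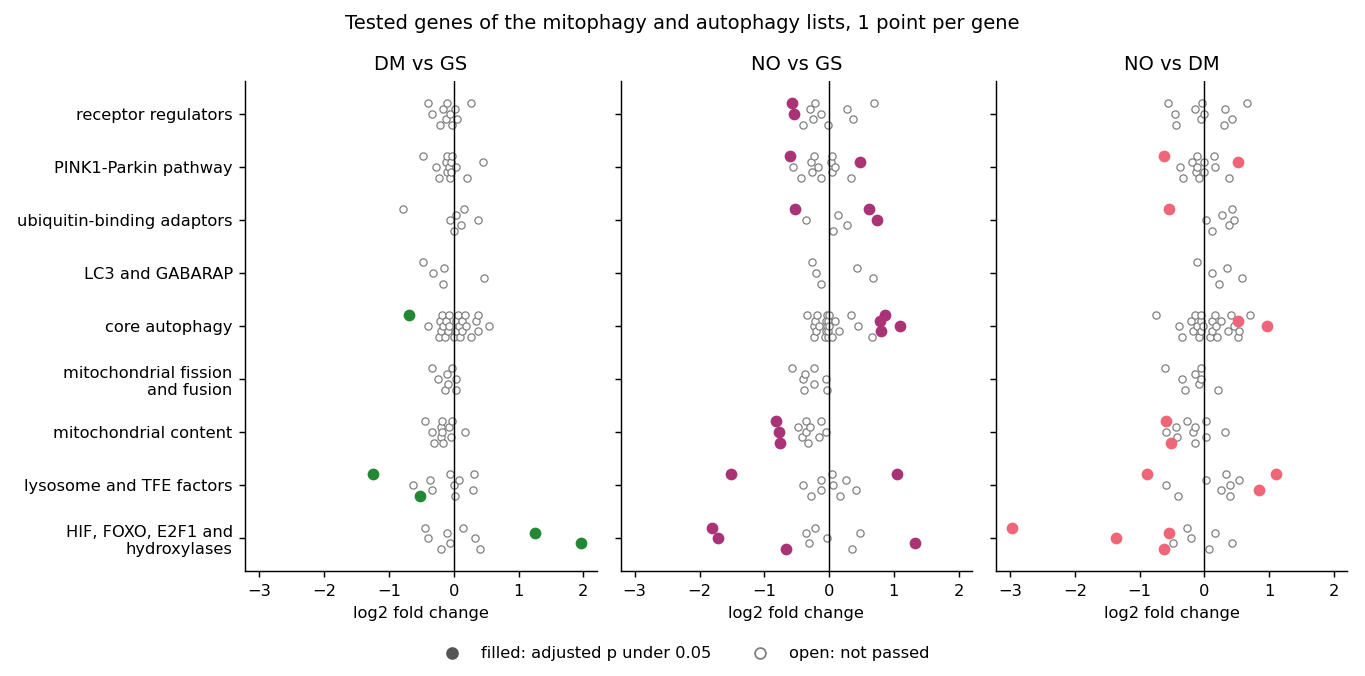
Log2 fold changes of normalised count + 1 (x axis) of the tested genes of 9 lists (y axis) in the 3 comparisons, 1 point per gene, with vertical offsets for legibility. Filled points had an adjusted p-value under 0.05 (limma, 3 samples per medium): 5 in DM against GS, 20 in NO against GS and 14 in NO against DM.

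The genes whose pattern over the 9 samples was most like that of *Bnip3* were *Slc16a3* (Pearson r = 0.989), *Pgm2* (0.989), *A2m* (0.986), *Ndrg1* (0.980), *Pfkl* (0.977), *Timm44* (0.975), *Shcbp1l* (0.970), *Khnyn* (0.967), *Fads2* (0.967) and *Tpi1* (0.966), among 12395 genes with a mean above 50. The 9 points are 3 groups of 3 libraries, so each r largely gives the low level in NO. *Slc16a3*, the lactate exporter MCT4, had 1898, 1775 and 1577 normalised counts in the GS samples, 2348, 2285 and 3367 in DM, and 251, 319 and 245 in NO. *Pfkl* and *Tpi1* encode glycolytic enzymes, *Pgm2* acts on sugar phosphates, *Ndrg1* is induced in hypoxia, and *Timm44* belongs to the mitochondrial import motor. All 10 had a lower mean in NO than in GS, from -0.39 for *Timm44* to -2.69 for *Slc16a3* on the log2 scale, and none by as much as *Bnip3*. Both points were largely fixed by the choice of *Bnip3* for its fall in NO and of these genes for likeness to it. ACGTG was present before the start of 3 of the 8 of these genes with a window, *Slc16a3*, *Pgm2* and *Khnyn*, and of 3 of 6 receptor-set genes with a window, *Bnip3*, *Fkbp8* and *Phb2*, against 16.6% of all windows. ACGTG or GCGTG was present in 5 of 8 and 5 of 6, against 38.6%. The shares of all windows include genes that were not expressed here. The 8 genes were chosen by likeness to *Bnip3*, and the 6 include *Bnip3* itself. With so few genes the counts do not set either group apart from other genes, and the difference in shares was not tested.

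**Figure D5:**
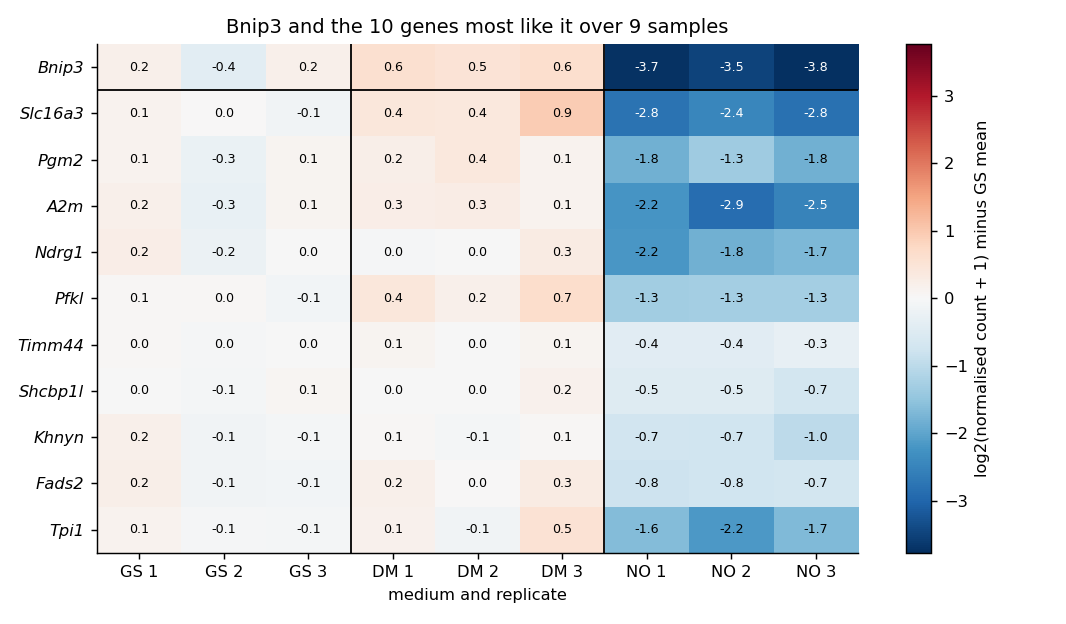
*Bnip3* and the 10 genes most like it (rows) in the 9 samples (columns), as log2(normalised count + 1) minus the GS mean of the gene, printed in each cell and coloured from blue (lower) to red (higher). All 10 were lower in the NO samples than the GS mean, and *Bnip3* showed the deepest decrease, both largely fixed by how the genes were chosen.

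The genes most like *Bnip3l* were others: *Plaa* (r = 0.993), *Gtpbp4* (0.991), *Gmps* (0.990), *Rbmxl1* (0.988) and *Mnd1* (0.987). They followed *Bnip3l* sample by sample, each being highest in GS replicate 3 and lowest in NO replicate 2, which their choice by likeness largely fixed. Among the 7 genes themselves, r over the 9 samples was 0.71 for *Bnip3* and *Bnip3l*, -0.77 for *Bnip3* and *Pink1*, 0.82 for *Bnip3l* and *Fundc1* and 0.82 for *Fkbp8* and *Phb2*. GS replicate 3 was the highest of all samples for *Bnip3l* and *Fundc1* and the lowest GS sample for *Fkbp8*, *Phb2* and *Pink1*.

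The libraries were estimated to hold 14307523 to 27080407 assigned reads, 1 read being worth 0.70 to 1.32 normalised counts, and replicates correlated across genes at a Spearman coefficient of 0.986 to 0.989 in GS, 0.979 to 0.991 in DM and 0.958 to 0.985 in NO. The 10 embryonic stem cell markers were all expressed, with a summed level of 114991 to 118112 in GS, 93824 to 103135 in DM and 59927 to 99104 in NO. Between DM and GS 3 of the 10 passed, *Utf1* as higher (2.18 on the log2 scale) and *Tfcp2l1* (-1.47) and *Nanog* (-0.80) as lower. Between NO and GS 1 of the 10 passed, as lower, and between NO and DM 2, both as lower. Of all tested genes, 4.37% passed as higher and 2.32% as lower in DM against GS. These shares were 13.4% and 6.64% in NO against GS, and 9.01% and 5.24% in NO against DM. Summed levels of 8 markers each were 136 to 158, 261 to 276 and 243 to 466 for fibroblasts, 145 to 205, 113 to 197 and 230 to 712 for primitive endoderm, and 662 to 691, 186 to 252 and 362 to 1245 for trophoblast in GS, DM and NO. Of 7 trophoblast markers tested, 3 passed as lower in DM against GS and 2 in each direction in NO against GS. In NO against DM 4 passed as higher and none as lower. Of 5 tested for primitive endoderm, 2 passed as higher in each NO comparison and none otherwise. Of 5 tested for fibroblasts, 1, 2 and 1 passed as higher in DM against GS, NO against GS and NO against DM, and none as lower. *Lum*, *Postn*, *Afp*, *Foxa2*, *Cdx2* and *Plac1* were at 0 in at least 1 sample. The part of these shifts in the results above was not tested, and in bulk RNA fewer cells of a type cannot be told apart from less RNA per cell.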

How the data were processed

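The deposited table holds a score per gene and sample: reads counted by the authors, divided by a DESeq2 size factor and rounded to whole numbers. Per the study's methods and the labels, ribosomal RNA was depleted, libraries were sequenced on an Ion Torrent Proton, trimmed with Reaper, aligned to GRCm38 with STAR 2.4.0a and counted over exons with featureCounts 1.4.5-p1. Reads that fit several genes or places were left out, which lowers genes with near-identical copies. Strand use is not given in the sources used here.

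Columns were matched to the 9 samples by title, and 0 columns of other samples were present. Because the values are not raw counts, no count model was fitted. limma 3.58.1 (R 4.3.3) was fitted to log2(value + 1) of the 18156 genes whose mean exceeded 5, using all 9 samples, with a mean-variance trend and two-sided tests. Fold changes on this scale understate those of low genes. Passed means a p-value under 0.05 after Benjamini-Hochberg adjustment over all tested genes, and called means also a log2 fold change of at least 1 in size. Depth was estimated from gaps among low values. Both procedures were tested on simulated data.

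The members, gene lists and alternatives were chosen with earlier results of these data known. Named genes were the 7 members, up to 3 genes per list and comparison with the smallest adjusted p-value under 0.05, and the 10 genes most like *Bnip3* and 5 most like *Bnip3l* by Pearson correlation among genes with a mean above 50. Clone and model names were skipped there. Outside this rule, *Park2* (not tested), *Hif1a* (not passed), *Ulk2*, *Vhl*, *Arnt* and some of the cell type markers were also named. Deviations from the group means of same-numbered NO and DM samples correlated at 0.159, 0.167 and 0.296, so the numbers were treated as possibly pairing these samples. Samples with different numbers were not compared in this way, and the labels do not say what a number stands for. Exons and neighbours came from GENCODE M21 (GRCm38), and promoter windows from RefSeq (GRCm38.p6), with 6 of the 7 members matched. The alternatives were other pseudocounts, minimum means, scalings and moderation, precision weights, the replicate block, the 6 samples compared alone, and each sample left out.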

Additional observations from a re-analysis of the deposited data

How the results depend on the processing

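Without the NO values *Bnip3* was chosen by, the 19 alternatives gave 361 log2 fold changes of the 7 genes. Of these 347 kept their side of the threshold, 9 lost a call (all *Pink1* in NO against DM), 5 gained one and 0 changed the sign of a passed value. Quantile normalisation moved *Bnip3* to -3.88 against GS and -4.48 against DM. With 1 sample left out, 0 to 1 of the 7 genes passed in DM against GS, 1 to 3 of the other 6 in NO against GS and 0 to 2 in NO against DM, the last being 0 also with the replicate block, without the trend and with the 6 samples alone. Pathway genes passing ranged from 3 to 8 (5 with all samples), 9 to 28 (20) and 4 to 31 (14). Without the trend they were 3, 11 and 8, and in NO against DM 9 with no minimum mean and 5 with the 6 samples alone. All genes called, 763, 2127 and 1552, became 505, 1206 and 936 with a minimum mean of 50, which tests fewer genes, 912 in NO against DM with the 6 samples alone, and 806 to 2512 there with 1 sample left out, fewest without NO replicate 2 and most without NO replicate 1. The share of calls that were higher was 86.0% in NO against GS and 79.3% in NO against DM, and 67.5% and 65.1% after quantile normalisation, which moved the median of all genes in NO against GS to -0.11. Same-numbered samples correlated at -0.178, 0.022 and -0.232 for DM and GS and at -0.046, 0.05 and -0.106 for NO and GS, so no pairing was seen there. The replicate block included the GS samples all the same. With the replicate block 4, 19 and 11 pathway genes passed, and 5 of the 36 named pathway results were lost, 3 of them in NO against DM and the others *March5* in NO against GS (adjusted p = 0.0628) and *Ctsb* in DM against GS (0.0862). The causes of these changes were not tested. Of the 36, 15 passed under every alternative. The 3 samples per medium set the precision.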
